A study of Mus musculus with 6 samples.

Results

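The enzymes that make NADPH were followed in the ventral midbrain, where the dopamine neurons of substantia nigra and the ventral tegmental area lie. They were 10 genes chosen by symbol: G6pdx, Pgd, Taldo1, Tkt, Me1 and Idh1 for the cytosol, and Me2, Me3, Idh2 and Nnt for mitochondria. Of these, 8 had a probe set of their own, out of 22180 genes with one, which left 4 cytosolic and 4 mitochondrial members. Tkt shared its probe set with the microRNA gene Mir3076, which lies within Tkt in the RefSeq table, and G6pdx had no probe set in the annotation used here, so its level was not analysed here. Each gene was read from its probe set with the highest mean, and Me3 was the member with more than 1.

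RNA came from male mice 2 months of age and was measured on 6 Affymetrix arrays, 3 labelled Bach1 KO and 3 labelled wild type (WT). The strain, the structure of the knockout allele and whether animals were pooled are not stated in the labels. Nothing says that replicates came from separate animals, so the p-values reflect only the spread among these samples, which may be technical. Levels are log2 expression values normalized with RMA by the authors, and a difference is KO-labelled minus WT on that log2 scale. The number of arrays limits the precision. Array medians lay between 5.58 and 5.69, and arrays correlated at 0.984 to 0.989 over their probe sets, which are no independent replicates. All 12 dopaminergic marker genes had means over the 40th percentile of the table, with a mean level of the list of 8.94 to 9.27 on the KO-labelled arrays and 8.87 to 9.02 on the WT arrays. Of these genes 10 had a higher and 2 a lower KO-labelled mean, with a median log2 difference of 0.16 and 0 called by limma.

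NADPH is the electron donor that keeps glutathione and thioredoxin reduced and that heme oxygenase, biliverdin reductase and lipid synthesis consume. In the cytosol it comes from the pentose phosphate pathway, malic enzyme and isocitrate dehydrogenase, while mitochondria make their own supply with separate isoenzymes and with the transhydrogenase of the inner membrane. BACH1 is a heme-binding repressor that competes with NRF2 for antioxidant response elements, and several cytosolic NADPH enzymes are known NRF2 targets. The comparison asked how transcripts of this region differ between arrays labelled Bach1 KO and WT.

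The Bach1 probe set was not lower on the arrays labelled knockout. It read 7.59, 7.68 and 7.70 on the KO-labelled arrays and 7.46, 7.59 and 7.57 on the WT arrays, with a log2 difference of 0.11 (95% interval -0.085 to 0.31, limma, adjusted p = 0.74). A probe set outside a deleted part checks nothing, and directions here follow the labels. Hmox1, the heme-degrading oxygenase that BACH1 represses, read 8.50, 8.22 and 8.41 on the KO-labelled arrays and 6.51, 6.46 and 6.32 on the WT arrays. Its log2 difference was 1.95 (limma, adjusted p = 0.0181). With any 1 array left out its adjusted p was between 0.134 and 0.233 (limma), while the log2 difference stayed between 1.88 and 2.03.

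None of the 8 members passed the test, and the differences were small on both sides of the compartment boundary. Limma called 0 of the 8 at an adjusted p of 0.05, against 3 of 41345 probe sets, or 0.00726%, and with any 1 array left out it called 0 probe sets in all. At an unadjusted p under 0.05 it gave 1 of the 8, against 8.27% of all probe sets and 1443 of 22180 genes. The KO-labelled and WT values did not overlap for 1 of the 8 members, against 14.3% of all probe sets. A share near the background is no result about these enzymes. The mean was higher on the KO-labelled arrays for 5 members and lower for 3. A higher mean was found for 50.1% of all probe sets and for 10407 of 22180 genes.

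By source, the 4 cytosolic members had a median log2 difference of 0.017 and the 4 mitochondrial members one of -0.033. Over all probe sets the median was 0.00050, and over the genes it was -0.0098. Among the cytosolic members 3 means were higher and 1 was lower, and among the mitochondrial members 2 were higher and 2 lower. The median of the cytosolic members was -0.036 without KO-labelled replicate 3. Both medians changed sign under rescaling of the arrays, so no direction is given for either source.

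**Figure D1:**
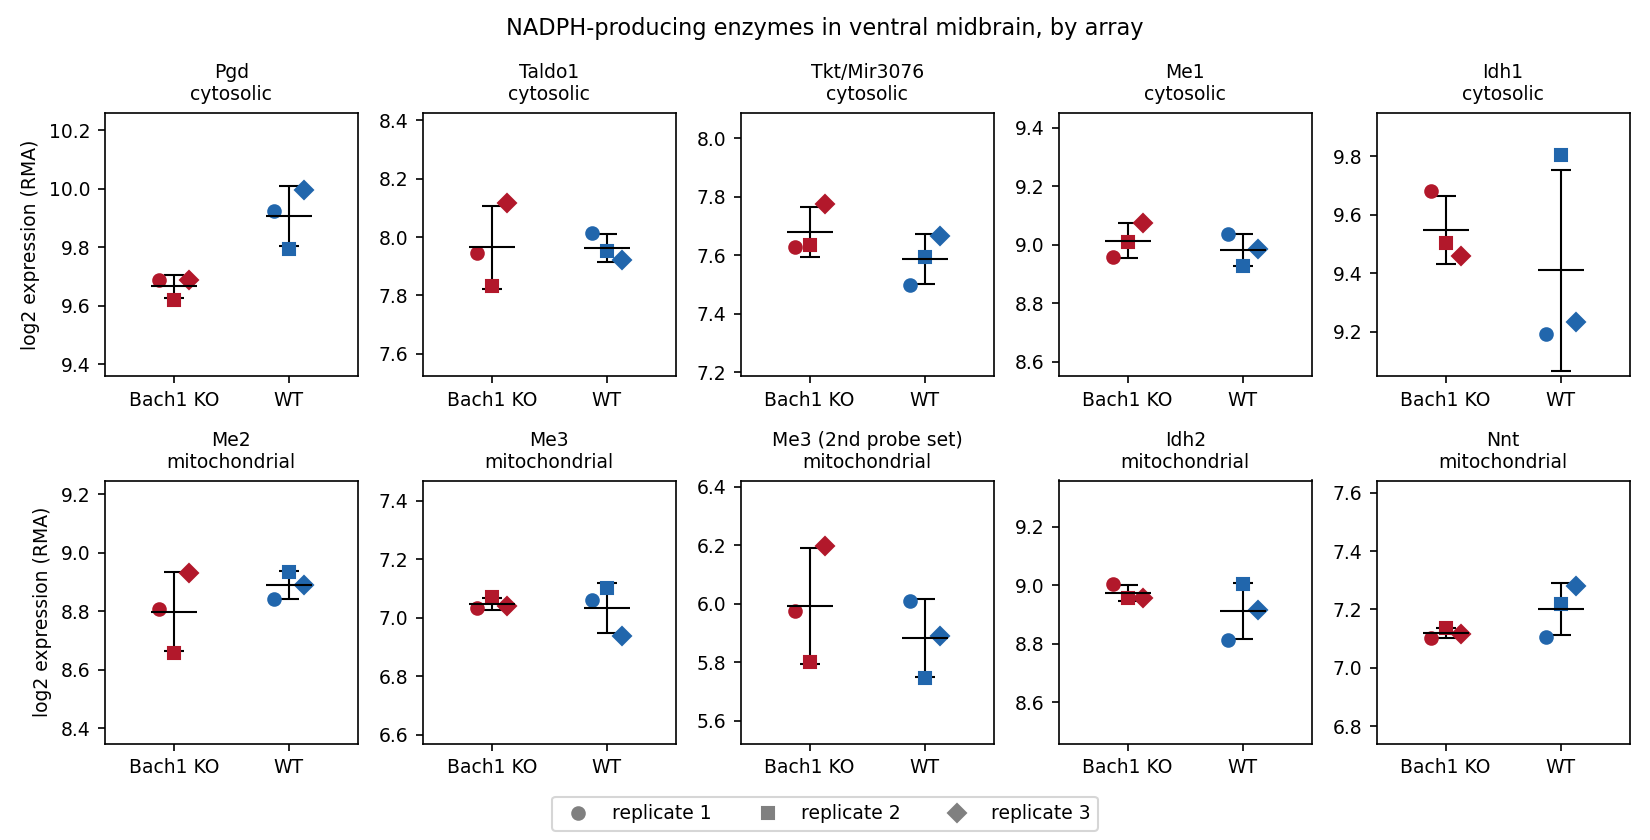
Log2 expression (vertical axes, each spanning the same number of log2 units) of the members' probe sets on each array, KO-labelled left of WT. Symbols mark the replicate number, long ticks the mean and bars the SD of 3 arrays, and the separated groups in the Pgd panel (9.62 to 9.69 against 9.79 to 9.996) contrast with overlapping values in all other panels.

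Pgd encodes 6-phosphogluconate dehydrogenase, the enzyme of the pentose phosphate pathway that makes NADPH after glucose-6-phosphate dehydrogenase. It read 9.69, 9.62 and 9.69 on the KO-labelled arrays and 9.92, 9.79 and 9.996 on the WT arrays. All 3 KO-labelled values lay below all 3 WT values, by a gap of 0.11 between the nearest arrays. The group means were 9.67 ± 0.039 in KO-labelled and 9.90 ± 0.10 in WT samples (SD, n = 3 each). The log2 difference of -0.24 (SE 0.087, 95% interval -0.45 to -0.029) corresponds to 0.847 times the WT level, and it did not pass over all probe sets (limma, unadjusted p = 0.0315, adjusted p = 0.572). Groups separated in this lower direction for 6.86% of all probe sets and for 1762 of 22180 genes. Of all probe sets, 3.3% had an unadjusted p under 0.05 (limma) in that direction. The difference stayed between -0.30 and -0.19 in all 12 alternatives tried, but many of these could not have reversed it. Robust variances, removal of dim probe sets and a replicate block leave a log2 difference as it is. Leaving out 1 array cannot reverse groups that do not overlap. In bulk tissue, fewer cells of a type and less RNA per cell cannot be told apart.

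Among 13 marker lists, of which the red blood cell list had no gene with its own probe set, endothelial and mural cell markers were the list whose mean level also separated in the lower direction. All 8 of its genes had a lower mean on the KO-labelled arrays, with a median log2 difference of -0.11 and 0 called. The mean level of the list was 8.241 to 8.461 on the KO-labelled and 8.464 to 8.559 on the WT arrays, so the nearest arrays almost touched. A separation this narrow is a description only. WT replicate 2 had the highest mean of this list, 8.559, and the lowest Pgd value of the WT arrays, 9.79. Other lists had lower means on most genes while their arrays overlapped. Hypothalamus and pituitary markers were lower for 7 of 7 genes, with a median log2 difference of -1.04, and their list mean was 5.70 to 6.60 on the KO-labelled and 6.57 to 7.89 on the WT arrays. Meningeal fibroblast markers were lower for 7 of 8 genes, with a median of -0.26 and list means of 7.66 to 8.27 on the KO-labelled and 7.72 to 8.67 on the WT arrays. Striatum markers were lower for 4 of 5 genes, with a median of -0.13 and list means of 7.20 to 7.50 on the KO-labelled and 7.23 to 7.82 on the WT arrays. Limma called 0 genes in each of these lists. The lists for neurons (11.61 to 11.63 on the KO-labelled and 11.55 to 11.65 on the WT arrays), oligodendrocytes (KO-labelled 10.97 to 11.23, WT 11.10 to 11.25) and astrocytes (KO-labelled 10.30 to 10.36, WT 10.26 to 10.40) overlapped. The part of vessel cells, of meninges or of neighbouring regions in the Pgd values was not tested.

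The upstream sequence of Pgd is shown because its groups separated, and that of G6pdx because it held the antioxidant response element core that was searched. Both are the 250 bases before a RefSeq start, for Pgd the outer of 2 starts, on build GRCm38.p6, minus strand, at chr4:149166706-149166955 for Pgd and chrX:74428881-74429130 for G6pdx. Capitals mark a match to the core.
Pgd: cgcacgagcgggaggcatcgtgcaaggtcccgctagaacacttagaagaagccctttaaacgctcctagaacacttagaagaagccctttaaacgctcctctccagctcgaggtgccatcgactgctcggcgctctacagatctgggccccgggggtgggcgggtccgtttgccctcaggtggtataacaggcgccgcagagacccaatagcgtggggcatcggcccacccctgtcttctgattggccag
G6pdx: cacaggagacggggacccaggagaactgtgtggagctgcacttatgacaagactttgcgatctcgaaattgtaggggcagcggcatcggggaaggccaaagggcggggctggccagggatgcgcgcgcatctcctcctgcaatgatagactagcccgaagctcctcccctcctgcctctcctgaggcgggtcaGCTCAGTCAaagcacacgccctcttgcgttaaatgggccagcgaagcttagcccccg
The core was written TGACNNNGC, on either strand. A stricter element of the same length, for BACH1 with small Maf proteins, was written TGANTCAGC. Windows were available for 8 of the 10 members, 11 in all, with none for the mitochondrial members Me2 and Nnt. TGACNNNGC lay in 1 of these 11 windows, that of G6pdx, on the strand opposite the gene and 57 to 49 bases before its start, against 10.2% of 32851 windows of the same length. TGANTCAGC lay in 0 of the 11, against 1.02% of all windows. Matches to the 2 patterns overlapped in 128 windows. A match is a description of letters, and their absence from the 2 Pgd windows covers the 250 bases before each start only.

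Taldo1 and Tkt encode transaldolase and transketolase, which do not make NADPH themselves but return pentose phosphates to glycolytic intermediates so that the oxidative steps can run again. Taldo1 read 7.95, 7.83 and 8.12 on the KO-labelled arrays and 8.01, 7.95 and 7.92 on the WT arrays. The highest and the lowest value were both KO-labelled, and the log2 difference was 0.0021 (95% interval -0.24 to 0.24, limma, adjusted p = 0.997). The probe set that Tkt and Mir3076 share read 7.63, 7.64 and 7.78 on the KO-labelled arrays and 7.50, 7.59 and 7.67 on the WT arrays. Its groups overlapped, with a log2 difference of 0.094 (95% interval -0.12 to 0.31, limma, adjusted p = 0.802), and it is not counted among the 8 members.

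G6pd2 encodes an autosomal copy of glucose-6-phosphate dehydrogenase and is a close relative of G6pdx, so its probe set may take up signal from G6pdx and is reported as uncertain. It read 4.77, 5.50 and 4.60 on the KO-labelled arrays and 5.25, 5.37 and 5.28 on the WT arrays. The KO-labelled values lay on both sides of the WT values, with an SD of 0.48 in KO-labelled and 0.060 in WT samples (n = 3 each). The log2 difference was -0.35 (95% interval -0.91 to 0.22, limma, adjusted p = 0.723) and stands for no value of G6pdx. It was -0.62 without KO-labelled replicate 2 and -0.17 without KO-labelled replicate 3.

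Me1 encodes the cytosolic malic enzyme, which makes NADPH while turning malate into pyruvate. It read 8.96, 9.01 and 9.08 on the KO-labelled arrays and 9.04, 8.93 and 8.98 on the WT arrays. The groups overlapped and the range over the 6 arrays was 0.15, the narrowest of the 8 members. The log2 difference was 0.032 (95% interval -0.16 to 0.23, limma, adjusted p = 0.935), so the interval for the ratio ran from 0.894 to 1.17 times the WT level.

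Idh1 encodes the cytosolic isocitrate dehydrogenase and had the widest range of the members over the 6 arrays, 0.61. It read 9.68, 9.50 and 9.46 on the KO-labelled arrays and 9.19, 9.80 and 9.23 on the WT arrays. WT replicate 2 was above every other array, while WT replicates 1 and 3 were below every KO-labelled array. The log2 difference was 0.14 (95% interval -0.30 to 0.58, limma, adjusted p = 0.867). Without WT replicate 2 it was 0.34 (limma, adjusted p = 0.814), and without WT replicate 1 or 3 it was 0.029 or 0.050. WT replicate 2 also had the highest mean level of the astrocyte list, at 10.40 against 10.26 and 10.35 on WT replicates 1 and 3, and of the choroid plexus and ependyma list, at 7.85 against 7.09 and 7.38. It was highest for endothelial and mural cells as well, at 8.56 against 8.46 and 8.47, and for meningeal fibroblasts, at 8.67 against 7.72 and 8.62. It was not the highest array for any other measured list, such as neurons, oligodendrocytes, microglia or striatum. KO-labelled replicate 2 came near it for choroid plexus and ependyma, at 7.84, with Idh1 at 9.50. WT replicate 3 came near it for meningeal fibroblasts, with Idh1 at 9.23. For astrocytes the KO-labelled arrays were at 10.36, 10.30 and 10.33. WT replicate 3 was above KO-labelled replicates 2 and 3 for this list, though its Idh1 value was lower. The part of these cell types in the Idh1 values was not tested.

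**Figure D2:**
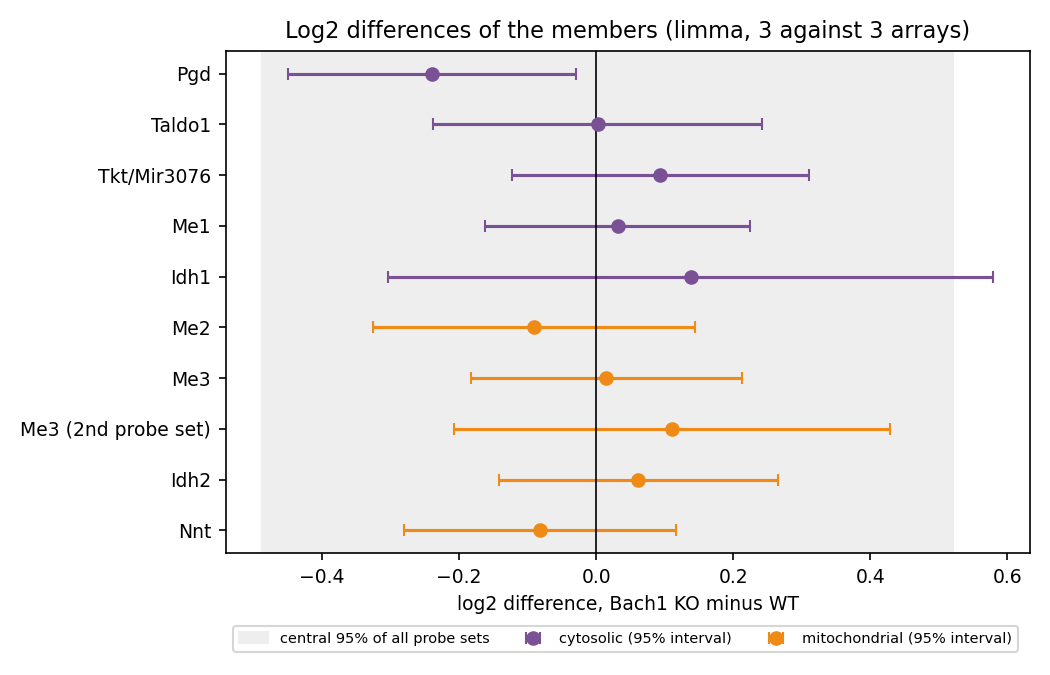
Log2 difference, KO-labelled minus WT (horizontal axis), of each member's probe set with its 95% interval from limma, coloured by source, and the range that holds the central 95% of all probe sets in grey (-0.49 to 0.52). The Pgd interval, -0.45 to -0.029, is the one that does not reach 0, and Idh1 has the widest, -0.30 to 0.58.

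Among the mitochondrial members, Me2 and Me3 encode malic enzymes, of which ME2 works mainly with NAD and ME3 with NADP. Me2 read 8.81, 8.66 and 8.93 on the KO-labelled arrays and 8.84, 8.94 and 8.89 on the WT arrays, so the groups overlapped. Its log2 difference was -0.091 (95% interval -0.33 to 0.14, limma, adjusted p = 0.828), and it was -0.020 without KO-labelled replicate 2. Me3 read 7.03, 7.07 and 7.04 on the KO-labelled arrays and 7.06, 7.10 and 6.94 on the WT arrays. The KO-labelled values lay inside the WT range, with a log2 difference of 0.015 (95% interval -0.18 to 0.21, limma, adjusted p = 0.973). The other probe set of Me3 read 5.98, 5.80 and 6.20 on the KO-labelled arrays and 6.01, 5.74 and 5.89 on the WT arrays. It also overlapped, with a log2 difference of 0.11 (95% interval -0.21 to 0.43, limma, adjusted p = 0.849).

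Idh2 encodes the mitochondrial NADP-linked isocitrate dehydrogenase. It read 9.004, 8.96 and 8.96 on the KO-labelled arrays and 8.81, 9.004 and 8.92 on the WT arrays. The KO-labelled values lay inside the WT range, with an SD of 0.027 in KO-labelled and 0.096 in WT samples (n = 3 each). The log2 difference was 0.061 (95% interval -0.14 to 0.27, limma, adjusted p = 0.873), and it was 0.012 without WT replicate 1 and 0.11 without WT replicate 2.

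Nnt encodes the transhydrogenase that uses the proton gradient to pass electrons from NADH to NADP. Mice of the C57BL/6J substrain carry a known deletion within Nnt, so the gene can show a difference in background between groups. It had 1 probe set, which read 7.10, 7.14 and 7.12 on the KO-labelled arrays and 7.10, 7.22 and 7.28 on the WT arrays. WT replicate 1 fell between KO-labelled replicates 1 and 3, and the 6 arrays spanned 0.18. The log2 difference was -0.082 (SE 0.082, 95% interval -0.28 to 0.12, limma, adjusted p = 0.812), which keeps the ratio between 0.823 and 1.08 times the WT level. It was -0.13 without WT replicate 1 and -0.042 without WT replicate 3. The annotation does not say which exons the probe set reads, and the Nnt allele of the animals was not tested.

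The Nnt profile over the 6 arrays was set against those of all other genes by the root mean square difference of their deviations from their own means. The nearest was Pfdn5, a subunit of the prefoldin chaperone, at 0.0103. It read 7.74, 7.78 and 7.77 on the KO-labelled arrays and 7.73, 7.84 and 7.91 on the WT arrays. The next were Gm16702 at 0.0154 and Ttc3, a ubiquitin ligase gene, at 0.0178. For Idh1, the member with the widest range, the nearest were Mirlet7f-2 at 0.0623, Pcare at 0.0703 and Olfr520 at 0.0747. With 6 arrays and 22180 genes, close profiles are a description only.

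The spread within groups was modest for most members. The residual SD lay below the median of all probe sets for 7 of the 8, between the percentiles 7.48 for Me1 and 26.8 for Taldo1. Idh1 was the exception, at percentile 73.7. All 8 lay above the 40th percentile of mean level (5.07), as did 15790 of 22180 genes. The percentiles of residual SD are over all probe sets, dim ones included, so they mark no trait of these enzymes.

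Other enzymes of NADPH metabolism also gave no called gene. Limma called 0 members in each of 6 further lists, and the smallest adjusted p was 0.512. Those at an unadjusted p under 0.05 (limma) were Tktl2 and Naprt. Of all 22180 genes 1443 were under it, so these 2 are a description only. Of 10 other pentose phosphate enzymes, 6 means were higher and 4 lower on the KO-labelled arrays, with a median log2 difference of 0.026. The groups separated in the higher direction for 2 of them, against 7.4% of all probe sets and 1411 of 22180 genes. Of the 10, 1 gene was at an unadjusted p under 0.05 (limma), against 8.27% of all probe sets. Tktl2, a transketolase-like gene, read 4.12, 4.14 and 4.17 on the KO-labelled arrays and 3.85, 3.74 and 3.78 on the WT arrays. Its groups did not overlap, and the log2 difference of 0.35 (95% interval 0.17 to 0.54) did not pass (limma, adjusted p = 0.512). The probe set lay below the 40th percentile of mean level. Shpk, the sedoheptulose kinase, had a log2 difference of -0.25 (95% interval -0.53 to 0.023).

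The list of NAD and NADP supply held the most separated genes, 3 of 8, or 37.5%, against 14.3% of all genes. This is the highest share of several small lists, in none of which a gene was called, so it is a description only. The median log2 difference of the list was -0.025, with 4 means higher and 4 lower. Naprt, which makes an NAD precursor from nicotinic acid, read 5.54, 5.62 and 5.48 on the KO-labelled arrays and 5.90, 5.95 and 5.96 on the WT arrays. Its values did not overlap, and the log2 difference of -0.39 (95% interval -0.58 to -0.20) did not pass (limma, adjusted p = 0.512). Nmnat3, an NAD-synthesising adenylyltransferase linked to mitochondria, separated in the higher direction at 0.25 (95% interval -0.039 to 0.53). Nmnat1, its nuclear counterpart, separated in the lower direction at -0.16 (95% interval -0.40 to 0.084), with a gap of 0.0030 between the nearest arrays.

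**Figure D3:**
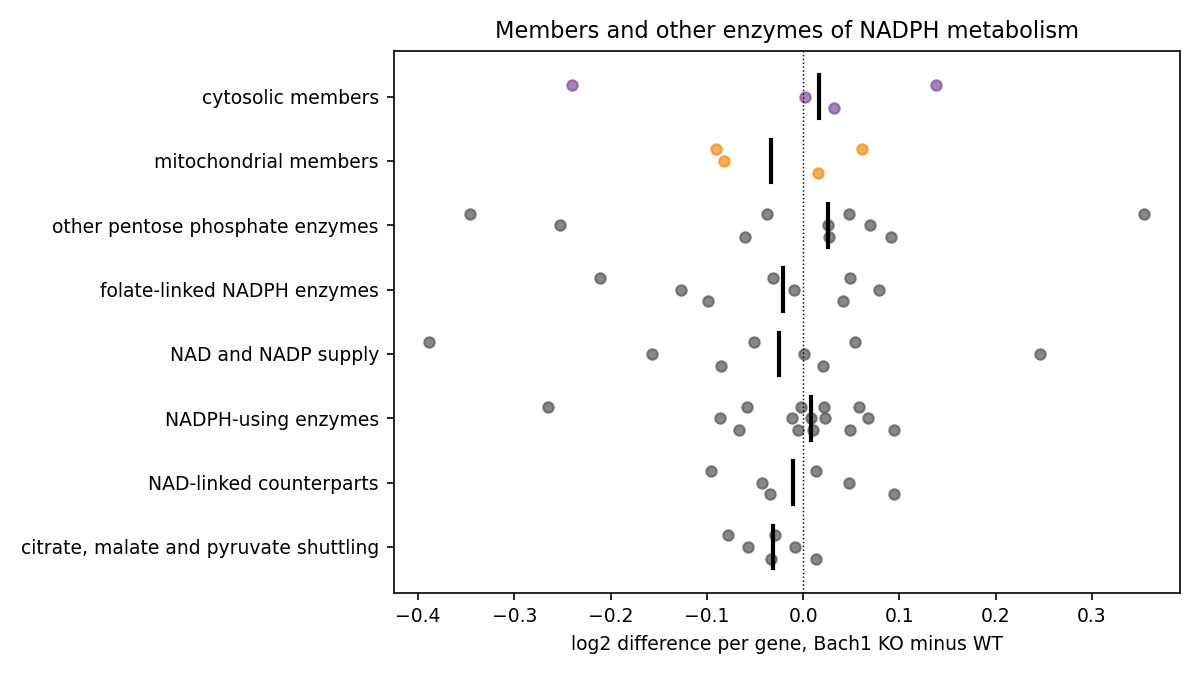
Log2 difference per gene, KO-labelled minus WT (horizontal axis), for the members by source and for 6 further lists of NADPH metabolism, 1 point per gene and a bar at each list's median. Medians lay between -0.033 and 0.026, and single genes between -0.39 for Naprt and 0.35 for Tktl2.

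Folate-linked NADPH enzymes had 3 higher and 5 lower means among 8, with a median of -0.020 and 0 separated. Groups separated for 14.3% of all genes, which is the share to set beside the counts of separated genes here. Mthfd2l, a mitochondrial methylenetetrahydrofolate dehydrogenase, had a log2 difference of -0.21 (95% interval -0.58 to 0.16), and Shmt2, the mitochondrial serine hydroxymethyltransferase, one of -0.13 (95% interval -0.37 to 0.12). Aldh1l2, a mitochondrial formyltetrahydrofolate dehydrogenase, was at -0.099. Of 20 NADPH-using enzymes 15 were measured, and 8 means were higher and 7 lower, with a median of 0.0082 and 0 separated. Cybb, the catalytic subunit of the phagocyte NADPH oxidase, had a log2 difference of -0.26 (95% interval -0.75 to 0.22). Its WT values ran from 5.15 to 5.94, around KO-labelled values of 5.25 to 5.37, and the difference was -0.48 without WT replicate 1 and -0.087 without WT replicate 3. The carbonyl reductases Cbr3 and Cbr1 were at 0.095 and 0.068, with the Cbr3 probe set below the 40th percentile of mean level.

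The NAD-linked counterparts had 3 higher and 3 lower means among 6, with a median of -0.010. Idh3a, the catalytic subunit of the NAD-linked isocitrate dehydrogenase of the citric acid cycle, separated in the higher direction. Its log2 difference was 0.095 (95% interval -0.088 to 0.28), with a gap of 0.016 between the nearest arrays. Glud1, glutamate dehydrogenase, was at -0.095 and the cytosolic malate dehydrogenase Mdh1 at 0.048. Genes of citrate, malate and pyruvate shuttling had 1 higher and 5 lower means among 6 measured, with a median of -0.031 and 0 separated. Over all genes 14.3% separated. Pyruvate carboxylase (Pcx), the carrier Slc25a11 and ATP citrate lyase (Acly) were at -0.078, -0.058 and -0.034.

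**Figure D4:**
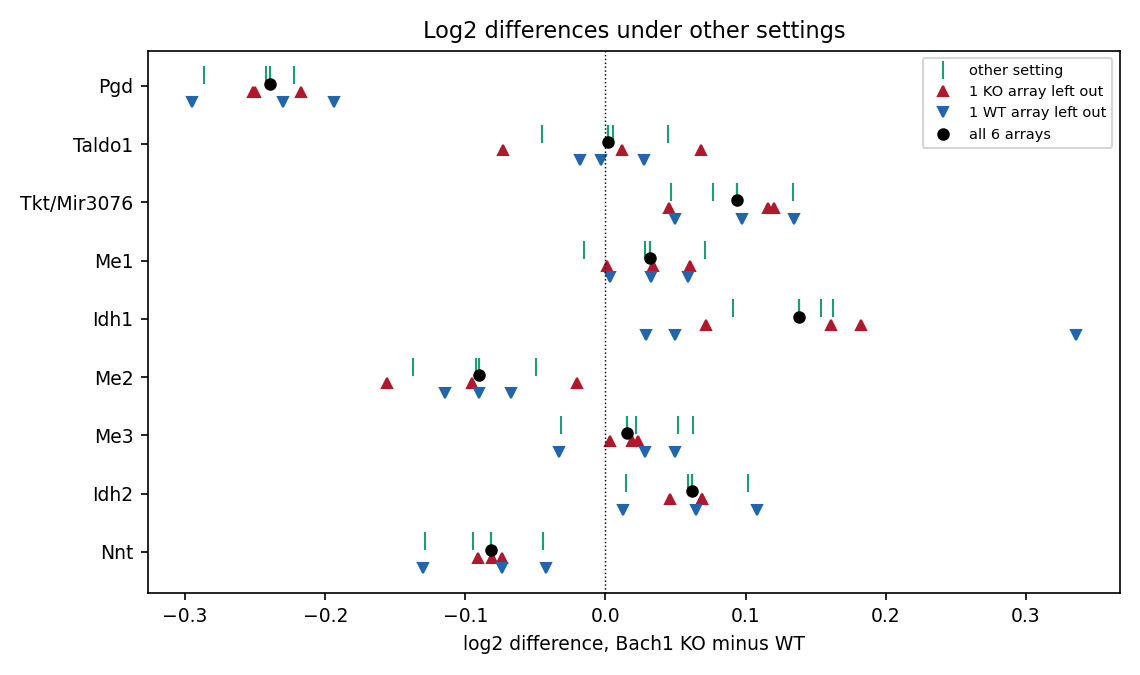
Log2 difference, KO-labelled minus WT (horizontal axis), of each member with all 6 arrays (black), with 1 KO-labelled or 1 WT array left out (triangles) and under other settings (ticks). Pgd stayed between -0.30 and -0.19, Idh1 reached 0.34 without WT replicate 2, and Taldo1, Me1 and Me3 lay on both sides of 0.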

How the data were processed

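Biotin-labelled cRNA from ventral midbrain was hybridised to Affymetrix arrays (per the labels). The deposited table holds 1 log2 value for each probe set and array. RMA is the method that the submitters' processing notes name for the authors' normalization. The log2 scale was read from the deposited values, 0.745 to 14.1, with no RMA version stated. RMA gives arrays nearly the same distribution, so a change shared by most genes would be removed. Columns of other samples numbered 0. A platform annotation gave 1 gene for 23521 of 41345 probe sets, several for 1814 and none for 16010, with symbols updated through Entrez identifiers to a RefSeq table (GRCm38.p6), which matched 25139.

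All probe sets were tested with limma 3.58.1 in R 4.3.3 (lmFit, eBayes) without covariates, with Benjamini-Hochberg adjustment over all of them, a threshold of 0.05 and 95% intervals. The fit was tested on simulated data with a common SD and planted differences larger than those of any member. That test does not cover differences of the size the members showed. Named genes were all members, every Nnt probe set, Bach1, Hmox1, up to 3 genes with the smallest unadjusted p from each further list, and the 3 nearest profiles to Nnt and Idh1. Members and lists were chosen with earlier results of these data known. Promoter sequences came from RefSeq. Alternatives were trend and robust variances, removal of dim probe sets, quantile normalization, median centring, a replicate block, array weights, each array left out, and the median probe set of a gene.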

Additional observations from a re-analysis of the deposited data

How the results depend on the processing

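Of the 8 members, 5 kept their direction in the alternatives, and none passed the test in any (limma, smallest adjusted p = 0.483). Trend and robust variances, removal of dim probe sets and the replicate block leave each log2 difference as it is. Only the other alternatives could turn a direction. Taldo1 turned to -0.045 with arrays centred on their medians and to -0.073, -0.0031 and -0.018 without KO-labelled replicate 3, WT replicate 2 and WT replicate 3, within a range of -0.073 to 0.068 over the arrays left out. Me1 turned to -0.015 with centring. Me3 turned to -0.032 with centring and to -0.033 without WT replicate 3, within a range of -0.033 to 0.050. Of the further genes, Acly turned to 0.0053 without KO-labelled replicate 2, within a range of -0.063 to 0.0053. Without 1 array in turn, the median of the cytosolic members ran from -0.036 to 0.051 and that of the mitochondrial members from -0.051 to -0.0085. With centring these medians were -0.030 and -0.081, and after renewed quantile normalization 0.058 and 0.0034. Without 1 array in turn limma called 0 probe sets, against 3 with all 6, and leaving out an array leaves fewer samples.

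The labels do not say whether the replicate numbers pair the samples. Deviations from the group means correlated at 0.086, -0.033 and 0.039 for same-numbered arrays. For KO-labelled and WT arrays with different numbers they correlated at -0.083 to 0.046. So few correlations cannot settle whether samples were paired. With the replicate block 0 probe sets were called. The block cannot change a log2 difference here, because each replicate number holds 1 array of each group. The adjusted p with it was 0.544 for Hmox1, at 1.95, and 0.613 for Pgd, at -0.24 (limma). Signal over background limits Tktl2 and Cbr3, whose probe sets were dim, and G6pd2, whose probe set was nearly so. It also limits the profiles of Mirlet7f-2 and Olfr520 likened to Idh1.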
